A study of Mus musculus with 8 samples.

Results

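The insulin-like growth factor (IGF) ligand Igf1, its receptor Igf1r, the receptor adaptors Irs1 and Irs2, and the IGF binding proteins Igfbp2 to Igfbp7 were followed across the arrays. These 10 genes, of 16582 with a named probe, were found by gene symbol, with no threshold on their values. The platform annotation gave them 13 probes, and all 13 are described. The cells were primary vascular smooth muscle cells (VSMC) from male C57Bl6/J mice aged 8 weeks. They received lentiviral short hairpin RNA against Uhrf1 (shUHRF1) or a scrambled hairpin (shSCR), were kept in puromycin for 2 days, and gave total RNA at day 5. Both groups therefore carried a lentivirus and had passed through puromycin. Each group holds 2 RNA samples, each read on 2 Illumina bead arrays, here called its first and second array. Neither the cultures or animals behind each RNA sample nor the hairpin of each shUHRF1 sample is given in the labels. The p-values below therefore reflect the scatter of these RNA samples alone, and that scatter may be technical.

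Igf1 is a secreted growth and survival factor, and in the vessel wall smooth muscle cells both make it and respond to it. It binds the receptor tyrosine kinase Igf1r, which phosphorylates the adaptors Irs1 and Irs2, and these pass the signal to PI3-kinase, Akt and mTOR. The binding proteins hold IGF outside the cell, where they can extend its life, keep it from the receptor or deliver it near the cell surface. Igfbp7 differs from the others in that it binds IGF weakly. Uhrf1 binds hemimethylated CpG sites behind the replication fork and recruits the maintenance DNA methyltransferase Dnmt1.

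On its detected probe (ILMN_2517041), Uhrf1 had a normalized log2 signal of 9.40, 8.73, 8.39 and 8.58 on the shUHRF1 arrays, against 11.51, 11.53, 11.45 and 11.62 on the shSCR arrays. The groups did not overlap, with shUHRF1 lower, and the log2 difference, shUHRF1 minus shSCR, was -2.75 (SE 0.23). It did not pass limma with Benjamini-Hochberg adjustment over all tested probes, with the arrays of an RNA sample averaged (adjusted p = 0.167). Another fit took all 8 arrays singly, with the RNA sample as a random block and the array number as a block. In that fit, which does not average the arrays of an RNA sample, Uhrf1 passed (limma, adjusted p = 0.0115). The arrays of an RNA sample were not equally alike. The median absolute log2 difference between the pair of arrays over tested probes was 0.283 and 0.253 in shUHRF1 samples 1 and 2, against 0.147 and 0.145 in shSCR samples 1 and 2. The second array of shUHRF1 sample 2 lay nearer to every shSCR array (0.215 to 0.243) than to its own first array (0.253), so the difference is also given with the first array alone standing for that sample. The shUHRF1 arrays of like number were also near each other, at 0.240 for the first arrays of samples 1 and 2 and 0.272 for their second arrays. Within the samples it was 0.283 for sample 1 and 0.253 for sample 2, so the second arrays were not nearer to each other than the pair of sample 2. That a pair holds 1 RNA sample, on which the averaging and n = 2 rest, is taken from the design text. Of 12 smooth muscle markers, 6 of 7 tested genes were higher in shUHRF1 cells, where 48.5% of all tested genes were higher. The linear signal summed over all 12, tested or not, was 23082 to 38573 on shUHRF1 arrays, against 16657 to 27623 on shSCR arrays. Acta2 had the highest signal of the list (mean log2 14.5 in shUHRF1 and 13.9 in shSCR), so this sum mostly follows Acta2. Cnn1, Myh11 and Myocd, which mark contractile smooth muscle, were not detected on any array. The 7 tested genes, Acta2, Tagln, Smtn, Cald1, Tpm2, Vcl and Csrp1, were detected on all 8 arrays. Tagln differed by 1.27 (SE 0.20), at a low signal (mean log2 6.36 in shUHRF1 and 5.09 in shSCR). Csrp1 differed by 0.77 (SE 0.19), Acta2 by 0.57 (SE 0.30) and Vcl by 0.33 (SE 0.20). Tpm2 differed by 0.25 (SE 0.22) and Smtn by 0.12 (SE 0.18), while Cald1 was lower (-0.23, SE 0.24). Of 8 fibroblast markers, 4 of 5 tested genes were higher. Scara5, among the 4, was detected on 4 shUHRF1 and 2 shSCR arrays and was tested only through the group where it is high. Dpt and Cd34 were tested only through shSCR. Pi16 and Pdgfra were detected on all 8 arrays. Scara5 differed by 1.14 (SE 0.35), Pi16 by 0.89 (SE 0.25) and Dpt by 0.43 (SE 0.60). Pdgfra differed by 0.10 (SE 0.42) and Cd34 by -0.24 (SE 0.34). The linear signal summed over the 6 fibroblast markers with a named probe spanned 330.1 to 1224 on shUHRF1 arrays, against 297.6 to 473.9 on shSCR arrays. These marker counts describe the tested genes alone. The endothelial markers Cdh5, Tie1 and Vwf and the leukocyte markers Ptprc, Adgre1 and Itgam were not detected on any array. Of the same lists, the endothelial markers Flt1 and Egfl7 and the leukocyte marker Cd14 were detected on all 8 arrays, Kdr on 2 shUHRF1 and 4 shSCR arrays, and Aif1 on 4 shUHRF1 and 2 shSCR arrays. Pecam1 was detected on 1 shUHRF1 array, Nos3 on 1 shSCR array, Tek on 2 arrays of each group and Lyz2 on 1 shUHRF1 and 3 shSCR arrays. Pecam1, Nos3, Tek and Lyz2 were not tested. Flt1 differed by 0.66 (SE 0.29), Egfl7 by -0.52 (SE 0.17), Kdr by -0.41 (SE 0.19), Cd14 by -0.26 (SE 0.21) and Aif1 by 0.037 (SE 0.17). Summed over each list, the endothelial signal was 588.6 to 863.8 on shUHRF1 arrays, against 649.0 to 864.3 on shSCR arrays, and the leukocyte signal 404.5 to 625.0, against 469.7 to 632.6. The part of any of these marker signals in the differences below was not tested.

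Among the tested members, Igfbp5, Igfbp6 and Igfbp3 had the largest differences under the background correction used, all higher in shUHRF1 cells, and Igf1 was also higher in both shUHRF1 samples. This order depended on the background correction: with none, Igfbp3 (0.27) lay below Igfbp7 (0.37) and Igf1 (0.33). In the authors' processed values Igfbp5 (0.24) and Igfbp3 (0.12) both lay below Igfbp7 (0.39) and Igf1 (0.31). Irs2 and 1 probe of Igfbp2 were lower on average, with overlapping samples, and Igf1r and Igfbp4 had differences near 0. No member probe passed the adjusted test, 0 of 10 tested, as was the case for all probes on the array (0 of 10880, 0%). In the fit of all arrays taken singly, with the array number as a block, 2 probes passed, none of them of a member. At an unadjusted p under 0.05, 3 member probes were higher and 0 were lower, where 7.65% of all tested probes were higher and 6.84% lower. Both shUHRF1 samples lay above both shSCR samples for 4 probes and below for 0, where the share over all tested probes was 23.3% above and 27.6% below. Counted by array, no member probe had all shUHRF1 arrays on 1 side of all shSCR arrays, where 7.67% of tested probes had them above and 8.58% below. A higher mean in shUHRF1 cells, of any size, was found for 7 of the 10 probes and for 47.3% of all tested probes. The median difference of the 10 tested probes was 0.25, beside -0.022 over all tested probes. Igfbp5 is in each of the higher counts and was tested only because it was detected on every shUHRF1 array, and the counted Igfbp2 probe was tested only through shSCR. The counts and the median describe the tested probes and are no support for a difference. In bulk RNA, fewer cells of a type and less RNA per cell cannot be told apart.

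**Figure D1:**
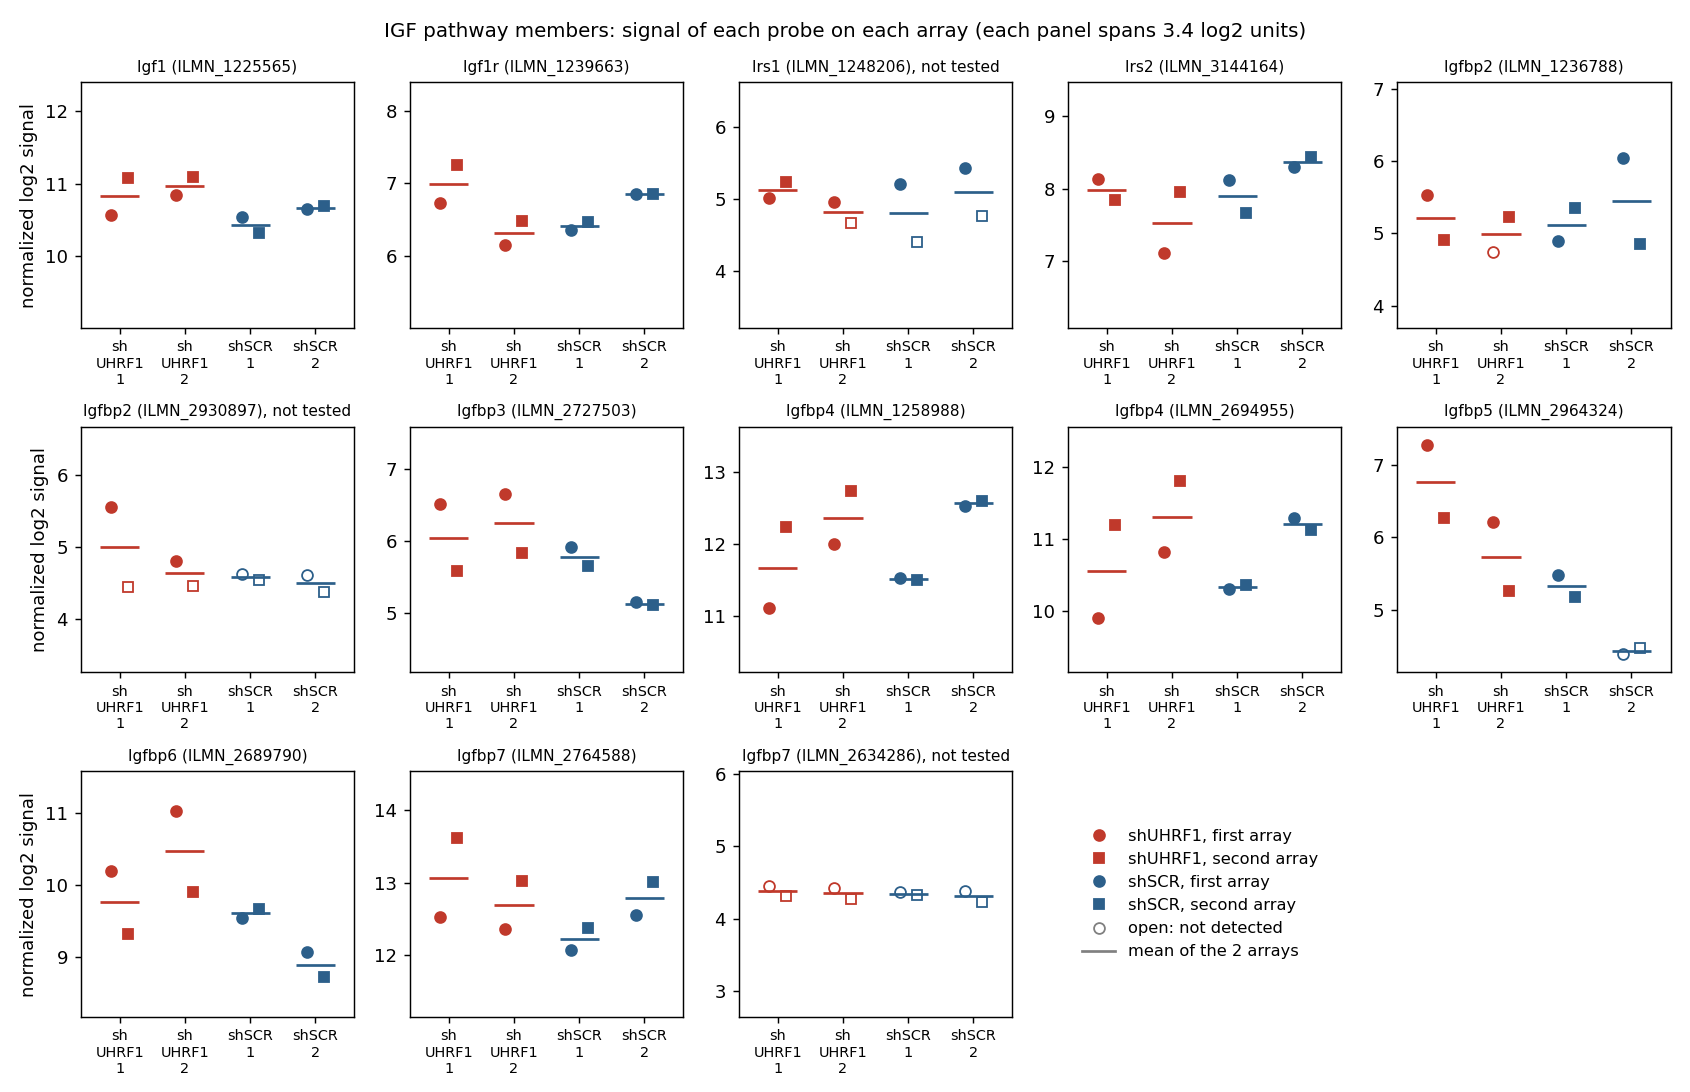
Normalized log2 signal (vertical axis) of each of the 13 member probes on each of the 8 arrays, by RNA sample, with shUHRF1 in red and shSCR in blue, circles for first and squares for second arrays, open symbols for arrays without detection and bars for the mean of the 2 arrays. Among the tested probes, both red bars lie above both blue bars for Igf1, Igfbp3, Igfbp5 and Igfbp6. The same order holds for the untested probes ILMN_2930897 of Igfbp2 and ILMN_2634286 of Igfbp7, which were near background.

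The ligand Igf1 (ILMN_1225565) was detected on all 8 arrays. Its log2 signal was 10.56 and 11.08 on the arrays of shUHRF1 sample 1 and 10.84 and 11.10 on those of sample 2, against 10.54 and 10.31 on shSCR sample 1 and 10.65 and 10.69 on shSCR sample 2. Both sample means were higher in shUHRF1 cells (10.82 and 10.97, against 10.43 and 10.67), although 1 array of shUHRF1 sample 1 lay between the shSCR arrays. The difference was 0.35 (SE 0.18, 95% interval -0.084 to 0.78, 1.27-fold, n = 2 RNA samples per group) and did not pass limma (adjusted p = 0.398). It was 0.11 on first arrays alone, 0.59 on second arrays alone, and 0.28 with the first array alone for shUHRF1 sample 2.

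The receptor Igf1r (ILMN_1239663), which binds Igf1 and signals through its kinase domain, showed no order of the groups. It had 6.72, 7.26, 6.14 and 6.48 on the shUHRF1 arrays, against 6.36, 6.47, 6.86 and 6.85 on the shSCR arrays. The sample means were 6.99 and 6.31 in shUHRF1 cells and 6.41 and 6.86 in shSCR cells, so the groups overlapped. The difference was 0.017 (SE 0.28), with a 95% interval of -0.66 to 0.70 (limma, adjusted p = 0.979), which leaves room for a difference of either sign. With the first array alone for shUHRF1 sample 2 the sign turned (-0.067).

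Of the adaptors, Irs2 (ILMN_3144164) had 8.13, 7.84, 7.10 and 7.95 on the shUHRF1 arrays, against 8.12, 7.67, 8.30 and 8.44 on the shSCR arrays. The lowest value belonged to the first array of shUHRF1 sample 2, and the samples overlapped. The difference was -0.38 (SE 0.25, interval -0.97 to 0.22, limma adjusted p = 0.483), and it was -0.59 on first arrays and -0.16 on second arrays. The first array alone for shUHRF1 sample 2 also gave -0.59. It was -0.61 without shUHRF1 sample 1, -0.62 without shSCR sample 1, -0.15 without shUHRF1 sample 2 and -0.14 without shSCR sample 2. Irs1 (ILMN_1248206) was detected on 3 of 4 shUHRF1 arrays and 2 of 4 shSCR arrays and was therefore not tested. Its log2 signal was 5.02, 5.24, 4.97 and 4.67 on the shUHRF1 arrays, against 5.21, 4.41, 5.43 and 4.76 on the shSCR arrays, with a difference of 0.019. Both groups sat near background for Irs1, so a difference was not detectable at this signal.

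The 3 binding protein genes with the highest differences under this background correction, Igfbp3, Igfbp5 and Igfbp6, are shown with the window from 250 bases before to 50 bases after their transcription start (RefSeq, build GRCm38.p6). They are shown because Uhrf1 acts at CpG dinucleotides, set in capitals below. Their windows run over chr11:7213874-7214173 on the minus strand for Igfbp3, chr1:72874816-72875115 on the minus strand for Igfbp5, and chr15:102143936-102144235 on the plus strand for Igfbp6.
Igfbp3: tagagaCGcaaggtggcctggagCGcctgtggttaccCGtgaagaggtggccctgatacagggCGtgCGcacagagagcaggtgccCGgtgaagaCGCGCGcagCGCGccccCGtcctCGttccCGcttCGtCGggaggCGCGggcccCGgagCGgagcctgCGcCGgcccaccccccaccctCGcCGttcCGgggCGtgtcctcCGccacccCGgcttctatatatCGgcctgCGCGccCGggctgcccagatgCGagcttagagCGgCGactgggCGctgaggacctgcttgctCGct
Igfbp5: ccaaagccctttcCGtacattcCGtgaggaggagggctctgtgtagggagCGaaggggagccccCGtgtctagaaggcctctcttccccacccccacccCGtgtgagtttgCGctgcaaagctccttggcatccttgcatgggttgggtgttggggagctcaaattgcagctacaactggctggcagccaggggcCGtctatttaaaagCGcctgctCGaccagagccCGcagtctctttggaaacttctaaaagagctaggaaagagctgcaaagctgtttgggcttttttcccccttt
Igfbp6: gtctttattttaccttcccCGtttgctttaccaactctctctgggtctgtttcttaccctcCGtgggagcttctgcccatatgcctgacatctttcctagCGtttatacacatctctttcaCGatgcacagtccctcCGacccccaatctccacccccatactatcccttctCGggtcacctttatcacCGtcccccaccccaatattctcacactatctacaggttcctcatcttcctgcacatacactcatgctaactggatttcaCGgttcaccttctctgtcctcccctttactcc
CG was counted as the 2 letters read 5′ to 3′, which is the same on both strands. Igfbp3 held 37 CG, a number that 5.58% of 32851 mouse promoter windows reach. Igfbp5 held 10 (reached by 43.5%) and Igfbp6 held 8 (reached by 48.6%), against a median of 7 over all windows. Methylation was not measured on these arrays, and the counts describe the letters alone. Across the other members the counts ran from 6 in Igf1 to 48 in Igf1r. Igfbp2 and Igfbp5 lie next to each other on chromosome 1, and Igfbp1 and Igfbp3 on chromosome 11, with 0 protein-coding genes between them in either case.

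Igfbp5 (ILMN_2964324), which binds IGF and also attaches to the extracellular matrix, had the largest difference of the members with the normexp background correction at offset 16. Igfbp6 differed by more with no background correction, where Igfbp6 had 0.78 and Igfbp5 0.54, with offset 50 (0.83 and 0.82), in the authors' processed values (0.67 and 0.24) and without shUHRF1 sample 1 (1.21 and 0.85). On the arrays Igfbp5 had 7.28 and 6.26 on shUHRF1 sample 1 and 6.21 and 5.25 on shUHRF1 sample 2, against 5.48 and 5.17 on shSCR sample 1 and 4.39 and 4.46 on shSCR sample 2. It was detected on all 4 shUHRF1 arrays and on 2 shSCR arrays, both of sample 1. It was therefore tested only through the group where it is high, its level in shSCR sample 2 is at background, and the size of the difference is uncertain. The means were 6.77 and 5.73 in shUHRF1 samples and 5.32 and 4.43 in shSCR samples. Both shUHRF1 samples were higher, but the second array of shUHRF1 sample 2 lay among the shSCR values. The difference as measured was 1.37 (SE 0.42, interval 0.35 to 2.39), with no fold given because of the undetected sample. It did not pass limma (adjusted p = 0.290). Without shSCR sample 2 it was 0.92, without shUHRF1 sample 1 it was 0.85, and in the authors' processed values it was 0.24. The first array alone for shUHRF1 sample 2 gave 1.61.

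Igfbp6 (ILMN_2689790), which binds Igf2 in preference to Igf1, was detected on all 8 arrays. It had 10.19, 9.32, 11.03 and 9.91 on the shUHRF1 arrays, against 9.54, 9.67, 9.07 and 8.72 on the shSCR arrays. The sample means were 9.76 and 10.47, against 9.61 and 8.90, and 1 shUHRF1 array lay inside the shSCR range. The difference was 0.86 (SE 0.33, interval 0.068 to 1.65, 1.81-fold; limma adjusted p = 0.327). It was 0.50 without shUHRF1 sample 2 and 0.50 without shSCR sample 2, and 1.14 with the first array alone for shUHRF1 sample 2.

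Igfbp3 (ILMN_2727503), the main carrier of IGF in blood, was detected on all 8 arrays. It had 6.50, 5.58, 6.65 and 5.84 on the shUHRF1 arrays, against 5.91, 5.66, 5.15 and 5.10 on the shSCR arrays. Sample means were 6.04 and 6.24 in shUHRF1 cells and 5.78 and 5.13 in shSCR cells. Both shUHRF1 samples were higher, while their second arrays lay within the shSCR range. The difference was 0.69 (SE 0.25, interval 0.080 to 1.30, 1.61-fold; limma adjusted p = 0.315). It was 0.36 without shSCR sample 2 and 0.12 in the authors' processed values, and 0.89 with the first array alone for shUHRF1 sample 2.

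The tested probes of the other binding proteins had overlapping samples. Igfbp7 (ILMN_2764588) had 12.52, 13.61, 12.36 and 13.02 on the shUHRF1 arrays, against 12.07, 12.38, 12.55 and 13.01 on the shSCR arrays, a difference of 0.38 (SE 0.25, interval -0.22 to 0.98; limma adjusted p = 0.483). It was 0.10 without shSCR sample 1, 0.19 without shUHRF1 sample 1 and 0.66 without shSCR sample 2. Its other probe (ILMN_2634286) was not detected on any array, so nothing is drawn from the order of its samples. Igfbp4, which inhibits IGF action, was read by 2 probes, both detected on all arrays. On ILMN_1258988 it had 11.11, 12.23, 12.00 and 12.74 on the shUHRF1 arrays, against 11.53, 11.51, 12.53 and 12.60 on the shSCR arrays, a difference of -0.023 (SE 0.39, interval -0.97 to 0.92). On ILMN_2694955 it had 9.91, 11.19, 10.82 and 11.80 on the shUHRF1 arrays, against 10.31, 10.36, 11.29 and 11.13 on the shSCR arrays, a difference of 0.16 (SE 0.36, interval -0.72 to 1.04). Both probes ran alike: in shSCR cells sample 1 was lower than sample 2 by a log2 difference of -1.04 and -0.87, larger than the difference between the groups, and limma gave adjusted p = 0.980 and 0.853. Igfbp2 (ILMN_1236788), another IGF carrier, had 5.54, 4.90, 4.74 and 5.23 on the shUHRF1 arrays, against 4.89, 5.35, 6.04 and 4.85 on the shSCR arrays, a difference of -0.18 (SE 0.20, interval -0.66 to 0.29; limma adjusted p = 0.664). It was -0.35 without shSCR sample 1, -0.30 without shUHRF1 sample 1, -0.066 without shUHRF1 sample 2 and -0.019 without shSCR sample 2. It was detected on 3 shUHRF1 and 4 shSCR arrays, and its other probe (ILMN_2930897) on 2 shUHRF1 and 0 shSCR arrays. That other probe had 4.45 to 5.56 on shUHRF1 arrays, against 4.38 to 4.62 on shSCR arrays, and both probes were near background.

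**Figure D2:**
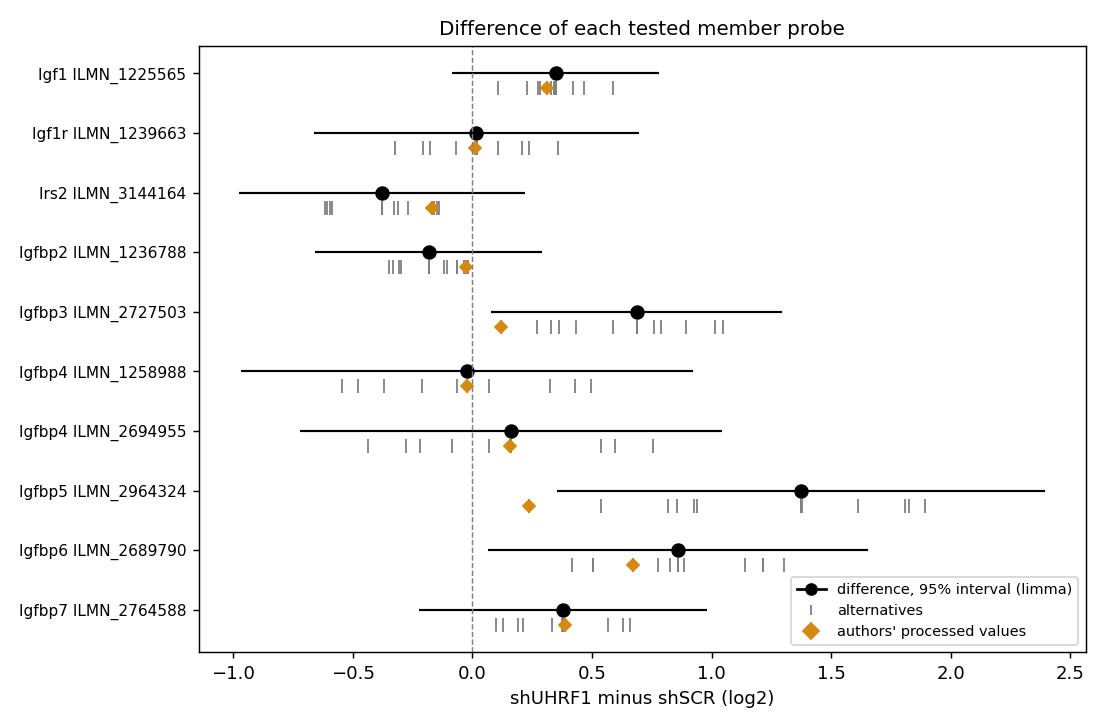
Difference in log2 signal, shUHRF1 minus shSCR (horizontal axis), of each tested member probe: points give the value with its 95% limma interval, grey ticks the alternatives, diamonds the authors' processed values. The intervals of Igfbp3, Igfbp5 and Igfbp6 lie above 0, and the diamonds of Igfbp3 and Igfbp5 lie near 0.12 and 0.24.

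The arrays of an RNA sample gave different member values in shUHRF1 cells. The median absolute gap of the 10 tested probes was 0.90 and 0.78 in shUHRF1 samples 1 and 2, against 0.24 and 0.11 in shSCR samples 1 and 2. Second minus first array, Igfbp4 had 1.12 and 0.74 on ILMN_1258988 in shUHRF1 samples 1 and 2, against -0.027 and 0.073 in shSCR samples 1 and 2. Igfbp5 had -1.01 and -0.96 in the shUHRF1 samples, against -0.31 and 0.076 in the shSCR samples, and Igfbp6 had -0.86 and -1.12, against 0.13 and -0.35. The second arrays of shUHRF1 samples were thus the lower ones for Igfbp3, Igfbp5 and Igfbp6, and the higher ones for Igf1, Igf1r, Igfbp4 and Igfbp7. The sign of the gap was the same in both shUHRF1 samples for 8 of the 10 tested member probes (66.5% of all tested probes), against 2 of 10 in the shSCR samples (56.1%). A gap above 0.5 in both samples occurred for 6 member probes in shUHRF1 (9.88% of tested probes) and 0 in shSCR (1.23%). The arrays of a pair carry one RNA sample per the design text, and the origin of the gaps was not tested.

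**Figure D3:**
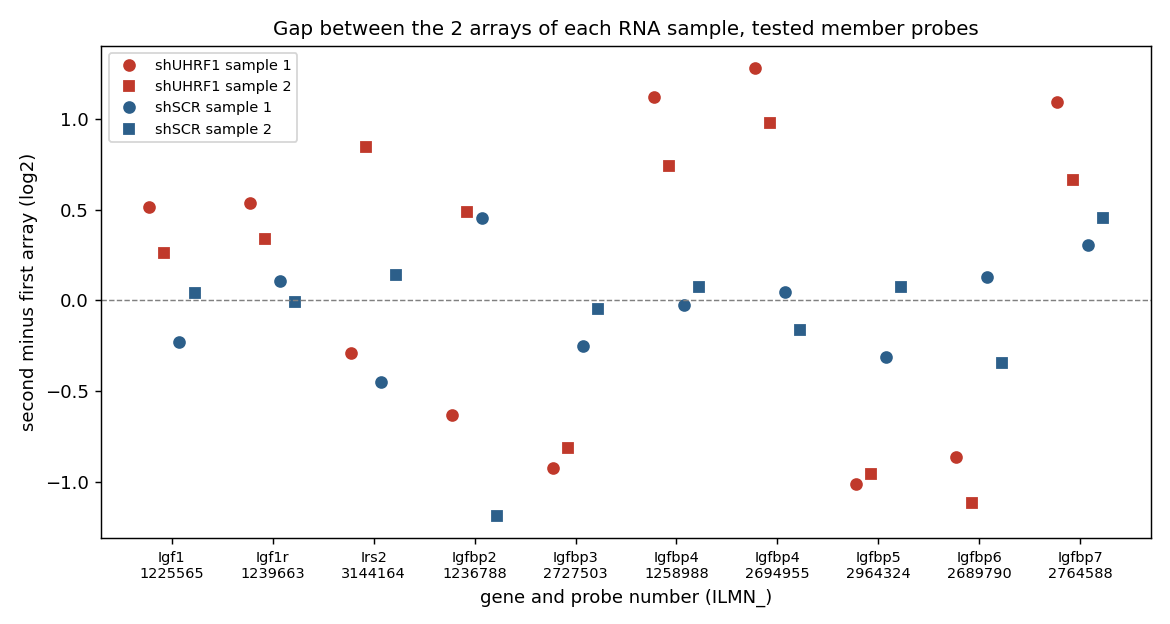
Second minus first array (vertical axis, log2) for each tested member probe, with shUHRF1 samples in red and shSCR samples in blue. The red points of Igfbp3, Igfbp5 and Igfbp6 lie below -0.5 and those of Igfbp4 and Igfbp7 above 0.5 in both shUHRF1 samples.

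The group difference of the members therefore depended on which arrays were read. On first arrays alone Igfbp5 had a difference of 1.81, Igfbp6 of 1.30 and Igfbp3 of 1.05, and on second arrays 0.94, 0.42 and 0.33. Igfbp4 had -0.48 and -0.43 on first arrays and 0.43 and 0.76 on second arrays for its 2 probes. Igfbp7 had 0.13 on first and 0.63 on second arrays. With the first array alone for shUHRF1 sample 2, Igfbp7 had 0.21, Igfbp2 -0.30, and Igfbp4 -0.21 and -0.084.

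Outside the members, 79 further pathway genes were listed by role, of which 65 had a named probe and 40 were tested on their brightest probe. Of the 40, 23 were higher and 17 lower in shUHRF1 cells (48.5% of all tested genes were higher), with a median of 0.064 beside -0.013 over all 7502 tested genes. None passed the adjusted limma test. At an unadjusted p under 0.05, 4 were higher and 0 lower, where 7.9% of tested genes were higher and 6.62% lower. Set against the shSCR mean, the median of the 40 was 0.18 for shUHRF1 sample 1 but -0.023 for sample 2. Igf2 is among the 23 higher genes and was tested only through shUHRF1, with detection on 4 shUHRF1 arrays and 1 shSCR array. Grb10 and Htra3 were tested only through shSCR. These counts and medians describe the tested genes and are no support for a difference.

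The 4 higher genes were Socs2, Igf2r, Pik3r2 and Rictor. Socs2, a feedback inhibitor of growth hormone signalling, had sample means of 10.53 and 9.91 in shUHRF1 cells, against 8.99 and 9.53 in shSCR cells (difference 0.96, SE 0.28; limma adjusted p = 0.287). Igf2r, the scavenging receptor of Igf2, had 8.08 and 7.76, against 7.31 and 6.84 (0.84, SE 0.23; limma adjusted p = 0.287). Pik3r2, a regulatory subunit of PI3-kinase, differed by 0.64 (SE 0.23) and Rictor, a subunit of mTOR complex 2, by 0.44 (SE 0.17). Of the lower genes with the lowest p, the phosphatase genes Phlpp1 and Ptpn11 had -0.36 (SE 0.16) and -0.30 (SE 0.16). Htra1, a protease that can cut IGF binding proteins, had -0.29 (SE 0.18), and Nras had -0.25 (SE 0.17). The insulin receptor gene Insr was not detected on any array, and the adaptor Grb10 had -0.14 (SE 0.34).

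**Figure D4:**
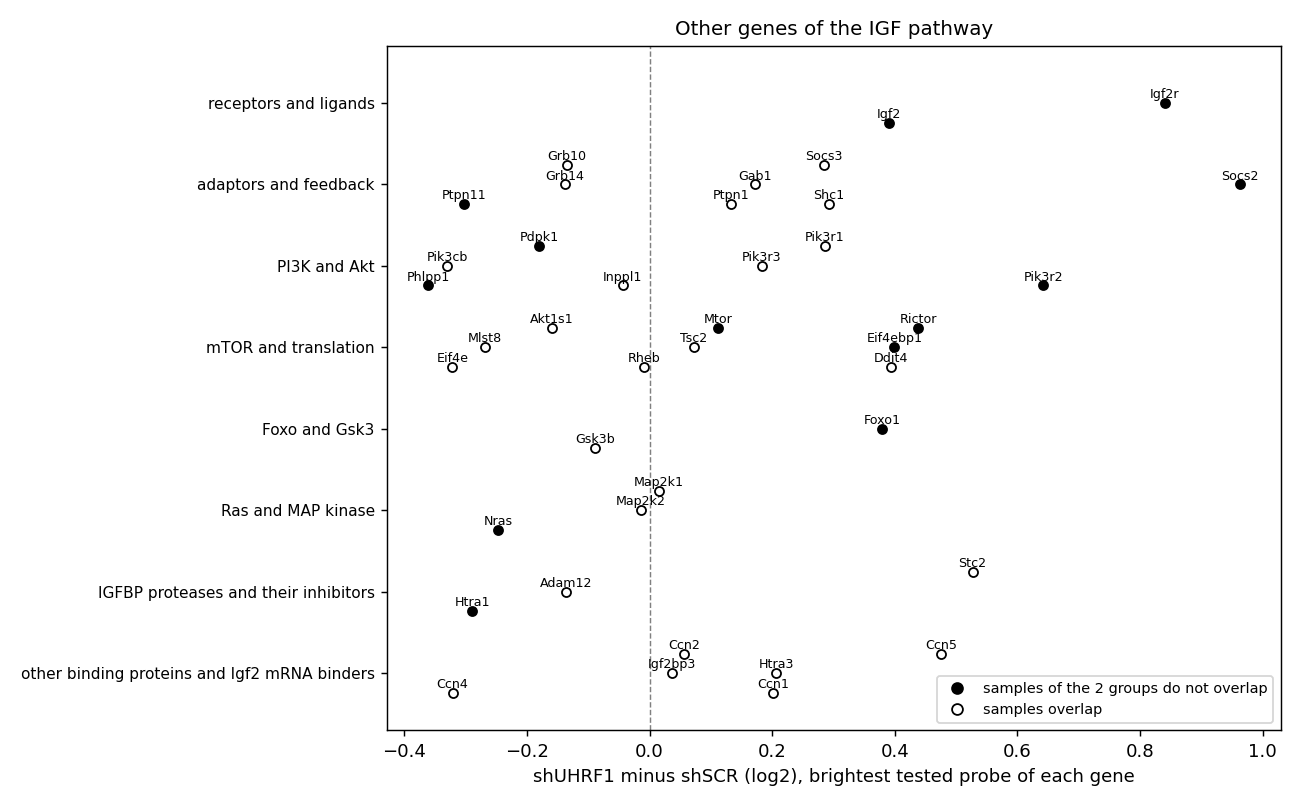
Difference in log2 signal, shUHRF1 minus shSCR (horizontal axis), for the brightest tested probe of each of the other pathway genes, by role (vertical axis). Filled points mark genes whose samples of the 2 groups do not overlap. Socs2 (0.96), Igf2r (0.84) and Pik3r2 (0.64) lie farthest to the right.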

How the data were processed

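The authors deposited mean bead intensity per probe and array with a detection p-value, per the file headers, and a table of processed values on a log2-like scale of unstated base with a median of 7.86. GenomeStudio 2011.1 and lumi are named in the submitters' processing notes; details of background handling were not given in the sources used here. Of 25671 probes in the deposited intensity table, which also has 19602 empty lines, 2 whose entries could not be read were dropped. They made 4 deposited detection columns hold something other than p-values. Signals were background-corrected (normexp, offset 16), quantile-normalized and log2-transformed (neqc, limma 3.58.1, R 4.3.3). Testing required detection (p under 0.05) on each of the 4 arrays in 1 group or both: 10880 probes of 7502 named genes and 630 probes without a symbol. The 2 arrays of an RNA sample were averaged, and 2 samples per group were compared with limma and Benjamini-Hochberg adjustment at 0.05. The median raw intensity per array lay at 103.4 to 123.3, and 45.1% to 48.2% of probes were detected per array. The number of RNA samples, 2 per group, limits the precision. Deviations of arrays from their mean correlated at r = 0.840 to 0.868 with those in the authors' processed table, which served as an alternative. Deviations of arrays of like number correlated over tested probes at r = 0.545 between the shUHRF1 samples. For the other pairs of RNA samples, r was 0.122 to 0.153. Deviations of RNA samples of like number correlated at r = -0.150, so a crossed pairing was added. Probes were named by the platform annotation; 1 further gene of the naming rule had no named probe here. Entrez identifiers of all 10 members matched the RefSeq table. Promoter windows came from RefSeq on GRCm38.p6, and figures were drawn with matplotlib 3.10.9. Named pathway genes were the 4 with the lowest p in each direction, and Insr, Igf2r and Grb10. The members and lists were chosen with earlier results of these data known.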

Additional observations from a re-analysis of the deposited data

How the results depend on the processing

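No alternative carried a member probe past the adjusted threshold. Igf1, Irs2, Igfbp2, Igfbp3, Igfbp5, Igfbp6 and Igfbp7 each kept the sign of the probe tested above under all alternatives that tested it. Igfbp5 ranged from 0.24 to 1.89, Igfbp6 from 0.42 to 1.30 and Igfbp3 from 0.12 to 1.05, with adjusted p from 0.140 to 0.696, 0.125 to 0.721 and 0.169 to 0.719 (limma). Detection on all 8 arrays at p under 0.01 left Igfbp2, Igfbp3 and Igfbp5 untested. Member probes at an unadjusted p under 0.05 (limma) numbered 3, those of Igfbp3, Igfbp5 and Igfbp6. Which probes these were changed with the setting. With no background correction they also numbered 3, but Igf1 stood in place of Igfbp3. With no detection filter they numbered 2, Igf1 and Igfbp5. In the authors' values and on second arrays only Igf1 was under 0.05, and with strict detection only Igfbp6. Under all other settings with 2 RNA samples per group they were the same 3. Counts with a sample left out are not given. The difference of Igf1r turned to -0.18 on first arrays and -0.067 with shUHRF1 sample 2 represented by its first array (added after seeing the data), and ranged from -0.32 to 0.36 when each sample was left out. That of Igfbp4 ILMN_1258988 turned to 0.43 on second arrays and 0.069 as the mean over probes, with -0.54 to 0.50 over samples left out. That of Igfbp4 ILMN_2694955 turned to -0.43 on first arrays and -0.084 with the first array of shUHRF1 sample 2, with -0.28 to 0.60 over samples left out. The pathway median turned to -0.0012 on second arrays and -0.023 without shUHRF1 replicate 1. The cause was not tested. Probes past the threshold numbered 0, against 1 on second arrays. With a replicate block they numbered 1 by RNA sample number and 2 by crossed numbers, a pairing added after seeing the data. In fits of all 8 arrays with the RNA sample as a random block they numbered 3, or 2 with the array number also as a block. Uhrf1 then passed at -2.75 in all blocked fits and at -2.92 on second arrays. With a sample left out, the remaining lone sample was assumed to vary like the other group. A block by chip was not run, since the headers give no chip. Probes near background bound what can be seen for Irs1, Igfbp2, Igfbp3 and Igfbp5.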

Other observations

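Over the 8 arrays, the genes with the most similar signal pattern to Igfbp5, among 7501 genes, were Zbtb24 (Pearson r = 0.989), H1f2 (0.987) and Cul7 (0.986), with group differences of 0.45, 1.02 and 0.48 on the log2 scale. The arrays are 4 RNA samples read in pairs and share the groups, so r is a description. For Irs2, the tested member with the lowest difference, they were Ing2 (0.949), Stt3b (0.945) and Ifit2 (0.941), with differences of -0.33, -0.078 and -0.21.

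Igf2 and Igfbp1 were looked up after their values were seen. Igf2, the other IGF ligand, was detected on 4 shUHRF1 arrays and 1 shSCR array, with a log2 difference of 0.39 (SE 0.17) near background. Igfbp1 was not detected on any array.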
